A study of Mus musculus with 30 samples.

Results

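Hyaluronan, the large proteoglycans that it carries and the proteins that bind, cross-link or cut it were followed through 10 genes in mouse cells labelled as aortic smooth muscle cells. The growth protocol in the labels names rat cells beside mouse cells, all libraries are labelled mouse, and the species of the reads was not tested. The genes were chosen by name: the hyaluronan synthases Has1, Has2 and Has3, the proteoglycans Vcan (versican) and Acan (aggrecan), the cross-linker Tnfaip6, the receptors Cd44 and Hmmr, and the hyaluronidases Hyal1 and Hyal2. All 10 were found among the 78334 gene identifiers of the deposited table.

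Hyaluronan is a long sugar chain without a protein core, extruded through the cell membrane by the synthases from nucleotide sugars. Versican and aggrecan attach to it along its length and carry chondroitin sulfate chains, which makes a hydrated matrix around the cell, and CD44 at the cell surface binds that matrix. In the artery wall, a matrix rich in hyaluronan and versican is known from migrating and dividing smooth muscle cells and from thickened intima, and the hyaluronidases break the chain into fragments that are taken up and degraded.

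RNA was measured in 30 libraries of 9 groups, sequenced in run 2 (10 libraries) and run 3 (20 libraries). Culture was serum-free for 48 h in all groups, with transfection for at least 24 h, so the control cells carried a transfected agent too. In run 2, without treatment, cells received a control antisense oligonucleotide (2 libraries), antisense oligonucleotides against total CASC15, a long noncoding RNA (2), a control plasmid (3) or a plasmid that overexpresses CASC15 (3). In run 3, each of 5 groups held 4 libraries: control antisense cells left untreated, given angiotensin II at 10 ng/ml or given the growth factor PDGF-BB at 10 to 30 ng/ml for 24 h, and cells with antisense knockdown of long CASC15, untreated or with angiotensin II. The titles number the target differently between libraries of a group, from CASC15 to CASC22, while the library names give each group 1 target, so groups follow the library names and the target is called CASC15 throughout. The antisense agents were GapmeRs, which direct RNase H to the RNA they pair with. Within a run, a batch named P16 to P19 in the labels runs with the replicate number, so each batch holds at most 1 library per group. The labels do not say whether libraries of a group came from separate cultures, and the p-values measure the spread between these libraries only.

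Library depth was 18007184 to 21881948 counts in run 2, and 15771489 to 30362053 counts were found in run 3. No table used here pairs CASC15 with a mouse gene. It was read as 2610307P16Rik, the long noncoding RNA gene near Sox4, from its position alone, and the labels do not define the words total and long. This gene rose on overexpression by a log2 fold change of 6.79 (adjusted p = 1.88e-05) and fell by 0.95 in the untreated long knockdown (adjusted p = 0.000832). In the libraries labelled total knockdown it was 9.73 and 8.29 CPM against 7.66 and 6.37 in their controls, so those libraries are named by their label. Of the smooth muscle markers, Acta2 lay between 96.5 and 441 CPM, Tagln between 0.234 and 3.45, and Cnn1 was at or below 5 counts in every library. The summed level of 10 smooth muscle markers was 237 to 598 CPM and that of 7 fibroblast markers 2640 to 4293 CPM.

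Levels of the members were compared between genes only per length, as CPM (counts scaled to library depth) per kilobase of the longest annotated transcript. In the untreated controls of run 3, Cd44 had the highest level of the 10, 16.2 CPM per kb, followed by Hyal2 at 11.9, Vcan at 6.53, Hyal1 at 3.5, Hmmr at 2.81 and Tnfaip6 at 1.88. The synthases were at the low end, with 0.546 CPM per kb for Has1 and 0.342 for Has3, and Acan was at 0.0315. Reads of Has2 (ENSMUSG00000022367.8) were close to none: 4 counts over the 30 libraries, with 26 libraries at 0 and at most 1 count in any. A library can show no level under 3 counts, which is 0.102 to 0.19 CPM here, so Has2 was not detectable at this depth and entered no test. Has2os, the antisense gene that shares 4.3% of the exon bases of Has2, held 35 counts in all. Acan was tested in run 2 only. Of the 10 members, 9 were tested in run 2 and 8 in run 3.

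PDGF-BB changed most members: 7 of the 8 tested passed an adjusted p of 0.05, 5 higher and 2 lower. Hmmr, Vcan, Cd44, Has1 and Tnfaip6 rose, and Hyal1 and Has3 fell. Across all 15103 genes tested in run 3, 43.6% passed in this comparison, 23.6% higher and 20% lower, and with the batch as a block 54.5%. Hyal2 joined the members called when the batch was a block (8 of 8, edgeR adjusted p = 0.046). Markers of smooth muscle and of other cells moved in the same comparison. Of 9 smooth muscle markers tested 2 rose and 1 fell, and the 10 summed to 302 to 327 CPM in the controls and 265 to 291 CPM with PDGF-BB. The one that fell was Acta2, from 212 ± 12.9 to 110 ± 10.8 CPM (SD, n = 4 each), by 0.94 on the log2 scale (adjusted p = 2.15e-05). The 7 endothelial markers summed to 1.25 to 2.76 CPM in the controls and 0.356 to 1.05 CPM with PDGF-BB, with Cdh5, Tie1 and Emcn at or under 3 counts in both groups, and 1 of the 2 tested fell. Of the fibroblast markers tested, 2 rose and 3 fell, with a sum over the 7 of 3444 to 3938 CPM in the controls and 3036 to 4293 with PDGF-BB, and Dpt and Cd34 were at or under 3 counts in the controls. The 6 epithelial markers summed to 97.7 to 129 CPM and 157 to 199 CPM, with Krt5 and Esrp1 at or under 3 counts in both groups. For the 8 chondrocyte markers the sums were 68.9 to 89.8 CPM and 59.1 to 72.4 CPM, and 1 of the 4 tested rose. Of these, Col9a1, Matn1 and Snorc were at or under 3 counts in both groups. Their part in the members' changes was not tested. In bulk RNA, fewer cells of a kind and less RNA per cell cannot be told apart.

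Knockdown of long CASC15 in untreated cells left 6 of the 8 members short of the threshold: Tnfaip6 rose and Hyal2 fell, where 25% of all genes passed, 12.3% higher and 12.8% lower. With the batch as a block, Hmmr fell as well, where 40.6% of all genes passed. Under angiotensin II the same knockdown lowered Hyal2 alone among 8 members, and 26.7% of all genes passed, 13.4% higher and 13.3% lower. With the block, 3 members fell there (Hyal2, Cd44 and Hmmr), and 41.3% of all genes passed. In the untreated long knockdown the epithelial markers summed to 36.6 to 69.9 CPM and the 8 chondrocyte markers to 115 to 162 CPM, against 97.7 to 129 and 68.9 to 89.8 in the controls, with Krt18, Krt5, Esrp1, Col9a1, Matn1 and Snorc at or under 3 counts in both groups. Under angiotensin II the same sums were 35.4 to 64.5 and 114 to 161 CPM in the knockdown, against 104 to 128 and 70.5 to 89.6 in its controls. Of 9 smooth muscle markers tested 2 rose and 3 fell in each condition, with sums of 267 to 369 against 302 to 327 CPM in untreated cells and 289 to 377 against 306 to 336 under angiotensin II. Myh11 lay between 0.265 and 1.36 CPM in the untreated knockdown and between 0 and 0.102 CPM, at most 3 counts, in the controls. Of 5 fibroblast markers 2 rose and 2 fell in untreated cells (3167 to 3563 against 3444 to 3938 CPM over the 7) and 1 rose and 2 fell under angiotensin II (3066 to 3610 against 3591 to 3906). Of 2 endothelial markers tested 1 rose in each condition. The 7 summed to 1.96 to 3.88 against 1.25 to 2.76 CPM in untreated cells. Under angiotensin II they summed to 2.29 to 4.21 against 0.925 to 2.28 CPM. Cdh5, Tie1 and Emcn were at or under 3 counts in all these groups. Of 2 leukocyte markers tested 0 passed in untreated cells and 1 rose under angiotensin II. There the 7 summed to 12.5 to 16.5 against 10.2 to 12.9 CPM. The part of all these markers was not tested. Without the 5 libraries of batch P19, 4 members passed in untreated cells and 3 under angiotensin II, where 40% and 39.9% of all genes passed.

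Overexpression of CASC15 raised Cd44 alone among 9 members in edgeR's test, where 1.65% of all 15350 genes tested in run 2 passed, 1.09% higher and 0.554% lower. DESeq2 called Has1 (higher, adjusted p = 0.0166) and Hyal1 (lower, 0.00454) as well, where it called 5.26% of all genes (genes it gave no adjusted p stay in that total). With the batch as a block, 5 members passed (Has1, Cd44 and Hmmr higher, Hyal1 and Hyal2 lower) and 17.7% of all genes. In the libraries labelled total knockdown no member passed with edgeR's test, where 2.07% of all genes passed. Unadjusted, 4 of the 9 members had a p under 0.05 in edgeR there, as did 1975 of all 15350 genes. DESeq2 called 3 (Has3 higher, Has1 and Hyal2 lower) and 4.68% of all genes. With the block, 4 members passed (Has3 and Hmmr higher, Has1 and Hyal2 lower) and 14.4% of all genes. Between the plasmid and antisense controls no member passed with edgeR or DESeq2, and 1.18% of all genes passed with edgeR and 2.26% with DESeq2. Unadjusted, 1 of the 9 members had a p under 0.05 in edgeR there, as did 1444 of all 15350 genes. With the block, Hmmr passed there, and 2.99% of all genes. Markers of other cells differed in run 2 as well. The epithelial markers summed to 44.6 to 64.2 CPM in the plasmid controls and 66.4 to 150 with overexpression, and to 44.2 to 45.1 in the antisense controls and 72.5 to 95.4 in the libraries labelled total knockdown, with Epcam, Krt18, Krt5 and Esrp1 at or under 3 counts in all 4 groups. The 7 leukocyte markers summed to 11.4 to 12.8 CPM in the plasmid controls and 18.1 to 23.5 with overexpression, where 1 of 4 tested rose and Ptprc, Adgre1 and Itgam were at or under 3 counts. Of 9 smooth muscle markers tested 1 rose in the labelled total knockdown and 1 fell with overexpression. The 10 summed to 249 and 274 against 237 and 259 CPM in the first and to 295 to 556 against 250 to 598 in the second. Myh11 was 4.31 and 6.67 CPM in the labelled libraries and 0.891 and 1.09 in the antisense controls. The part of these markers in the members' values was not tested.

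**Figure D1:**
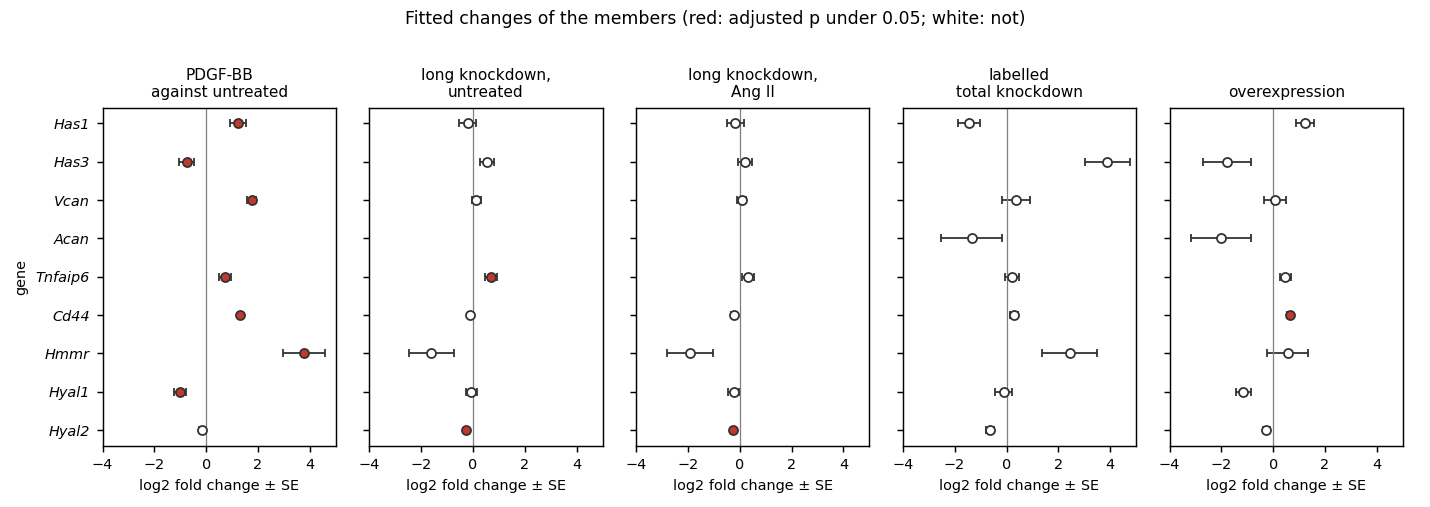
Fitted log2 fold change (x axis, with its standard error as bars) of each member tested (y axis) in 5 comparisons, red where the adjusted p was under 0.05. PDGF-BB has 7 red points of 8, from -1.02 for Hyal1 to 3.78 for Hmmr, and the longest bars are those of Acan in the run 2 comparisons.

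Has1 (ENSMUSG00000003665.8) is the synthase that held most of the synthase RNA in the run 2 controls and in the PDGF-BB cells. Its promoter is shown because Has1 rose under both PDGF-BB and, with the block, overexpression. The RefSeq window of 250 bases before its start lies at chr17:17855189-17855438 (GRCm38.p6, minus strand, 58% G and C), and capitals mark a CCAAT box and the letters TTTGAA, read on the other strand, which is the core of the element that cell cycle genes often carry.
Has1: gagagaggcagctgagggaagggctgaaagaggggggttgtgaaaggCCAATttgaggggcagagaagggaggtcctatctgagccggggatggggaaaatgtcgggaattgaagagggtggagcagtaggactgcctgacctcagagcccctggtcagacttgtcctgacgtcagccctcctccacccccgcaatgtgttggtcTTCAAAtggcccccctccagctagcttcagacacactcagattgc
Among 32851 mouse promoter windows of the same length, 33.8% hold CCAAT and 16% hold TTTGAA on either strand. The other letters searched on both strands were TGANTCA (6.75% of windows), TATAAA (12.4%), GGGCGG (32.7%), TTCCCGC (3.82%) and TTGGCGC (1.97%), and by name the CArG box (1.47%) and the NF-kB site (7.25%). A match is a description of the letters only.

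Has1 was at 1.68, 2.06, 1.5 and 2.51 CPM in the untreated control libraries of batches P16 to P19 and at 4.49, 3.75, 4.32 and 5.6 CPM with PDGF-BB. Every PDGF-BB library was above every control library. The means were 1.93 ± 0.447 and 4.54 ± 0.774 CPM (SD, n = 4 each), a log2 fold change of 1.22 with a standard error of 0.316 and an edgeR adjusted p of 0.00381. The call held in all 15 alternative analyses. Overexpression gave 8.24, 12.7 and 8 CPM in batches P17 to P19, against 2.75, 4.9 and 4.71 in the plasmid controls. These groups did not overlap, and the log2 fold change of 1.23 (SE 0.334) missed the threshold without the block (adjusted p = 0.114) and passed with it (0.00131). In the libraries labelled total knockdown Has1 was 1.1 and 2.02 CPM against 3.43 and 5.14 in the antisense controls, lower in both batches. That difference was -1.45 (SE 0.427), with an adjusted p of 0.143 without the block and 0.00366 with it. The long knockdown gave 1.21, 1.45, 0.979 and 3.08 CPM, with a log2 fold change of -0.21 (adjusted p = 0.678), and its P19 library was above all 4 controls while the other 3 were below theirs.

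Has3 (ENSMUSG00000031910.15), the synthase known for making shorter chains, fell with PDGF-BB. Its transcript overlaps Chtf8 on the opposite strand over 5.5% of its exon bases. Chtf8 holds 96511 counts over all libraries against 1087 for Has3, and the strand setting of the counting is not given in the sources used here, so reads of the overlap cannot be told apart. Chtf8 itself changed by a log2 fold change of 0.11 with PDGF-BB (adjusted p = 0.11) and of -0.03 in the libraries labelled total knockdown (adjusted p = 0.968).

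Has3 was at 1.97, 1.46, 2.89 and 1.76 CPM in the untreated controls of run 3 and at 1.51, 1.64, 0.948 and 0.662 CPM with PDGF-BB. The ranges overlapped, and 3 of the 4 batches had the lower value with PDGF-BB. The log2 fold change was -0.76 (SE 0.284, edgeR adjusted p = 0.0358), and 7 of 15 alternatives lost the call. Leaving out 1 library lost it for the P16 control (0.0501), the P18 control (0.155), the P18 PDGF-BB library (0.101) and the P19 PDGF-BB library (0.107). In the untreated long knockdown the 4 values were 3.27, 3.23, 3.48 and 1.86 CPM, higher than the control of the same batch each time. The log2 fold change of 0.55 (SE 0.267) had an adjusted p of 0.141. It passed in 2 of 15 alternatives, at 0.0419 without the P19 knockdown library and 0.0372 without batch P19, and leaving out 1 library otherwise gave up to 0.3.

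The largest difference of Has3 was in run 2. The antisense controls had 0.178 and 0.247 CPM (4 and 5 counts) and the libraries labelled total knockdown 1.81 and 4.61 CPM (36 and 103 counts). Both labelled libraries were above both controls, by a fitted log2 fold change of 3.89 (SE 0.866). The adjusted p was 0.0549 without the block, 0.00229 with it and 0.00488 with DESeq2. Leaving out 1 library gave adjusted p-values of 0.075 to 0.514, and without the P18 labelled library the change was 3.05. The plasmid controls had 0.135, 0.495 and 0.17 CPM and the overexpression libraries 0.15, 0.0598 and 0 CPM, at most 9 counts in any, with an adjusted p of 0.405. The untreated antisense control, sequenced in both runs, was at 0.213 CPM in run 2 and 2.02 CPM in run 3. Run and library preparation cannot be told apart from other differences between those groups, and no test was made between runs.

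Per length, Has1 made up 46.3 to 70.4% of the summed synthase level in the untreated controls of run 3 and 79.2 to 93.4% with PDGF-BB. The sum itself was 0.818 to 1.01 CPM per kb in the controls and 1.34 to 1.69 with PDGF-BB. In run 2 the share of Has1 was 96.4 and 97% in the antisense controls and 42.2 and 50.5% in the libraries labelled total knockdown. The sum was 0.999 and 1.5 CPM per kb in those controls and 0.617 and 1.35 in the labelled libraries, so the ranges of the sum overlapped while those of the share did not. In the untreated long knockdown the share was 31.5 to 73.5% with a median of 40.3%, and the highest value was that of batch P19.

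**Figure D2:**
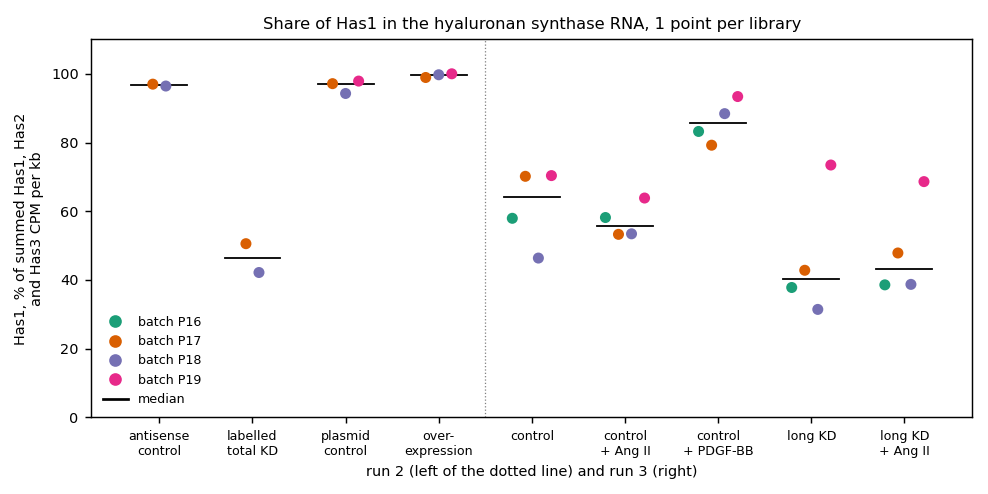
Share of Has1 in the summed CPM per kb of Has1, Has2 and Has3 (y axis, %) for each of the 9 groups (x axis; KD, knockdown; Ang II, angiotensin II), 1 point per library coloured by batch, with the median as a line. The PDGF-BB libraries lie at 79.2 to 93.4%, all above the 46.3 to 70.4% of their controls, and the libraries labelled total knockdown at 42.2 and 50.5%.

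Versican (Vcan, ENSMUSG00000021614.17), the main hyaluronan-binding proteoglycan of the artery wall, rose 3.36-fold with PDGF-BB. Its promoter window, chr13:89742513-89742762 (GRCm38.p6, minus strand, 62.4% G and C), is shown because of that rise, with a CCAAT box on the other strand and both GGGCGG matches in capitals.
Vcan: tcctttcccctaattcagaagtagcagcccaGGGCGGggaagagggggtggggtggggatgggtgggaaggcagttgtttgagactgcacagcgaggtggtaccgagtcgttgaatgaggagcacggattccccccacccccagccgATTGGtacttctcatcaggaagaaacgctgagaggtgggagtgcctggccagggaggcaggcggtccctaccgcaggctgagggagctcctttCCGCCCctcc
Vcan was at 95.5, 81.1, 67 and 81.1 CPM in the untreated controls of batches P16 to P19 and at 311, 289, 269 and 222 CPM with PDGF-BB. The lowest PDGF-BB library was above the highest library of every other group of run 3. The means were 81.2 ± 11.6 and 273 ± 37.9 CPM (SD, n = 4 each), with a log2 fold change of 1.75, a standard error of 0.178 and an edgeR adjusted p of 4e-07. All 15 alternatives kept the call.

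The long knockdown did not show a difference of that size in Vcan. Its untreated libraries had 72.6, 78.6, 80.7 and 123 CPM, around the controls, a log2 difference of 0.13 (SE 0.175, adjusted p = 0.629). Without batch P19 the sign turned, to -0.08. Under angiotensin II the change was 0.07 (SE 0.176, adjusted p = 0.803), and -0.10 without batch P19. In run 2 the P18 library had the highest Vcan in all 4 groups, with 244, 336, 142 and 185 CPM in the antisense control, the labelled total knockdown, the plasmid control and the overexpression group. The differences were 0.36 (SE 0.536, adjusted p = 0.862) for the labelled total knockdown and 0.07 (SE 0.44, adjusted p = 0.966) for overexpression. The plasmid controls, at 65.8 to 142 CPM, lay below the antisense controls, at 150 and 244 CPM. That difference of -0.88 (SE 0.484) had an adjusted p of 0.586, or blocked 0.119, and passed in 1 of 12 alternatives, without the filter on low counts (3.91e-06).

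Aggrecan (Acan, ENSMUSG00000030607.8), the cartilage proteoglycan of the same family, was scarce in all groups. In run 3 its libraries held 1 to 12 counts, and it was not tested. In run 2 the antisense controls had 2.41 and 1.58 CPM, the libraries labelled total knockdown 1.3 and 0.269, the plasmid controls 1.13, 0.825 and 0, and the overexpression libraries 0.349, 0.0598 and 0.052. The antisense controls were above every library of the other 3 groups. Its log2 fold changes were -1.35 (SE 1.16, adjusted p = 0.718) for the labelled total knockdown and -2.02 (SE 1.16, adjusted p = 0.454) for overexpression. Without the filter on low counts the second had an adjusted p of 0.0413. Chondrocyte markers, of which 3 or 4 of 8 were at or under 3 counts in each group, summed to 218 to 239 CPM in the antisense controls, 106 to 215 in the plasmid controls and 77.9 to 149 with overexpression, and to 266 to 290 in the libraries labelled total knockdown, where Acan was lower and the sum higher than in the antisense controls. Their part in the level of Acan was not tested.

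Tnfaip6 (ENSMUSG00000053475.6) encodes TSG-6, an enzyme that moves heavy chains of inter-alpha-inhibitor onto hyaluronan and so cross-links it. It was at 3.86, 3.19, 3.34 and 2.44 CPM in the untreated controls, at 5.44, 6.83, 4.95 and 3.72 with PDGF-BB and at 6.54, 4.9, 5.27 and 3.98 in the untreated long knockdown. In each of these groups batch P19 was lowest, and each treated or knockdown library was above the control of its batch. With PDGF-BB the log2 fold change was 0.71 (SE 0.228, edgeR adjusted p = 0.0163). The ranges overlapped, and the call was lost without the P17 PDGF-BB library (0.0709). In the long knockdown it was 0.69 (SE 0.228, adjusted p = 0.0299), and the ranges did not overlap. Leaving out 1 library lost this call for 6 of 8 libraries, with adjusted p-values of 0.0588, 0.0537 and 0.105 without the P17, P18 or P19 control and of 0.118, 0.0504 and 0.0629 without the P16, P17 or P18 knockdown. With the block the adjusted p was 0.000674.

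Under angiotensin II the same knockdown gave 5.49, 4.53, 4.39 and 3.29 CPM for Tnfaip6 against 4.11, 3.97, 4.03 and 2.22. Again every batch was higher in the knockdown, but the change of 0.30 (SE 0.231) did not pass (adjusted p = 0.359, or blocked 0.109). The difference between both knockdown effects was -0.39 (SE 0.324, unadjusted p = 0.24). With overexpression Tnfaip6 was 5.59, 6.04 and 6.91 CPM against 3.51, 4.62 and 5.27, without overlap, and the change of 0.47 (SE 0.218) had an adjusted p of 0.357. The promoter window of Tnfaip6 holds the AP-1 letters TGANTCA, and none of the other 7 member windows does.

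**Figure D3:**
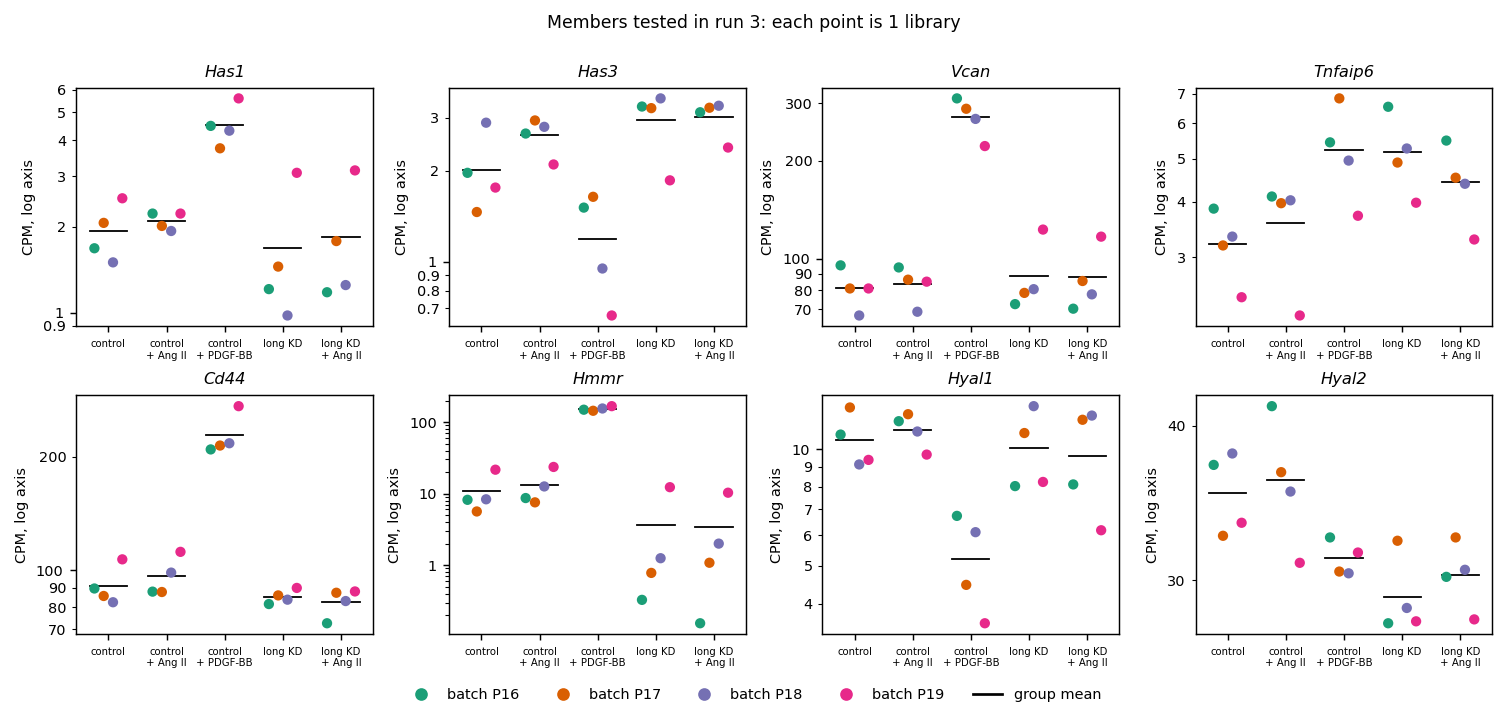
CPM on a log axis (y) of the 8 members tested in run 3 in its 5 groups (x; KD, knockdown; Ang II, angiotensin II), 1 point per library coloured by batch, with the group mean as a line. Vcan, Cd44 and Hmmr with PDGF-BB lie above all other libraries, and Hmmr in the long knockdown spreads from 0.154 to 12.3 CPM with batch P19 highest.

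CD44 (Cd44, ENSMUSG00000005087.18) is the main cell surface receptor for hyaluronan, and it rose 2.5-fold with PDGF-BB. Its promoter window, chr2:102901666-102901915 (GRCm38.p6, minus strand, 56.4% G and C), is shown because it held none of the 9 motifs searched, which says only that these letters are not in this window.
Cd44: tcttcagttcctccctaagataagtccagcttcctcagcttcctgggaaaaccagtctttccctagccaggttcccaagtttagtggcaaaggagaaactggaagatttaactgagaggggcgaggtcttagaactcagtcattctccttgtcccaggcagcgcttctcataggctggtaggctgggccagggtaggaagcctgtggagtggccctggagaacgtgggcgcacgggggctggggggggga
Cd44 was at 89.6, 85.6, 82.4 and 107 CPM in the untreated controls of batches P16 to P19 and at 209, 214, 217 and 272 CPM with PDGF-BB. The groups were far apart against their spread, 91.2 ± 11 and 228 ± 29.6 CPM (SD, n = 4 each). The log2 fold change was 1.32, with a standard error of 0.0993 and an edgeR adjusted p of 2.81e-09, and all 15 alternatives kept the call.

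Overexpression of CASC15 raised Cd44 as well, to 230, 259 and 203 CPM from 144, 142 and 151 in the plasmid controls. No overexpression library was as low as any control. The log2 fold change was 0.66 (SE 0.113, edgeR adjusted p = 0.021, or blocked 0.00108). It was lost in 5 of 13 alternatives, at 0.0883 and 0.0997 without the P17 or P18 control, 0.0682 and 0.0893 without the P17 or P18 overexpression library and 0.0811 when only the compared groups were fitted. The libraries labelled total knockdown were at 170 and 183 CPM against 156 and 133, a change of 0.29 (SE 0.137, adjusted p = 0.428).

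Cd44 did not pass in the long knockdown with all libraries and no block. In untreated cells it was 81.5, 85.9, 83.7 and 89.9 CPM, a log2 difference of -0.10 (SE 0.0986, adjusted p = 0.499). Under angiotensin II it was 72.5, 87.3, 83 and 88 CPM against 87.9, 87.7, 98.7 and 112, lower in every batch. That change of -0.22 (SE 0.0989) had an adjusted p of 0.101 without the block and 0.00423 with it. Without batch P19 it passed at -0.18 (adjusted p = 0.0234), and with 1 library left out the adjusted p was 0.061 to 0.352.

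Hmmr (ENSMUSG00000020330.17) encodes RHAMM, which binds hyaluronan at the cell surface and, inside dividing cells, sits on the mitotic spindle. It had the largest change of the members with PDGF-BB, 13.7-fold. Its promoter window, chr11:40733438-40733687 (GRCm38.p6, minus strand, 51.6% G and C), is shown because it holds 5 CCAAT boxes, all read on the other strand as attgg; at 1 of them the letters GGGCGG follow and share bases with it.
Hmmr: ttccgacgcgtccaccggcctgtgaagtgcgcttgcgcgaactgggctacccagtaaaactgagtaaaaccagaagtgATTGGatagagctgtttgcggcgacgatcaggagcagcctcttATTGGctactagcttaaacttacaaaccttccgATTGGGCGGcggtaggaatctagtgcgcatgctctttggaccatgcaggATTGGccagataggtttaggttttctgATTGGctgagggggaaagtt
Of the 32851 windows, 70 (0.213%) hold 5 or more matches to CCAAT. Such boxes are a usual feature of genes of the later cell cycle, and the binding of a factor there was not measured.

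Hmmr was at 8.19, 5.63, 8.33 and 21.6 CPM in the untreated controls of batches P16 to P19 and at 149, 144, 155 and 167 CPM with PDGF-BB. The PDGF-BB libraries lay close together and far above the controls, among which P19 was highest. The means were 10.9 ± 7.23 and 153 ± 9.89 CPM (SD, n = 4 each), with a log2 fold change of 3.78, a standard error of 0.805 and an edgeR adjusted p of 0.00125. Without the P19 control the change was 4.39, and without batch P19 it was 4.32. All 30 mitosis genes of the list rose in the same comparison with edgeR (18 with DESeq2, which gave the other 12 no adjusted p and called 45% of all genes), with a median log2 fold change of 3.44 beside -0.02 over all genes tested. Their summed level was 283 to 667 CPM in the controls and 4333 to 4426 with PDGF-BB. Mki67, a marker of cycling cells, rose by 3.77 (adjusted p = 0.00209) and the mitotic cyclin gene Ccnb1 by 3.58 (adjusted p = 0.000509).

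In the untreated long knockdown Hmmr was at 0.327, 0.779, 1.25 and 12.3 CPM, which is 7, 14, 23 and 232 counts. Each library was below the control of its batch, with log2 ratios from -4.28 to -0.81. The fitted change was -1.61 (SE 0.878), with an adjusted p of 0.196 without the block and 0.04 with it. Without the P19 knockdown library it was -3.86 (adjusted p = 0.00866), and without all P19 libraries -3.28 (adjusted p = 0.000288). These and the block were the 3 alternatives that passed, 11 did not, and the smallest change was -1.03 (adjusted p = 0.494) without the P19 control. Under angiotensin II the knockdown libraries had 0.154, 1.08, 2 and 10.3 CPM against 8.67, 7.55, 12.6 and 23.6. That change was -1.93 (SE 0.888, adjusted p = 0.122, or blocked 0.0179), or -3.59 (adjusted p = 0.0156) without the P19 knockdown library and -1.47 (adjusted p = 0.314) without the P19 control.

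The summed level of the mitosis genes was below the control of its batch in each long knockdown library. In untreated cells it was 104, 102, 121 and 416 CPM in P16 to P19, against 353, 283, 375 and 667 in the controls. Under angiotensin II it was 102, 108, 118 and 386 CPM against 342, 346, 449 and 732. Of the 30 genes, 1 fell in untreated cells (median log2 fold change -1.36) and 6 fell under angiotensin II (median -1.53), where 12.8% and 13.3% of all genes fell, with medians of 0.02 and 0.01. Unadjusted, 14 and 28 of the 30 had a p under 0.05 in edgeR, as did 5598 and 5785 of all 15103 genes. With the batch as a block 26 and 29 fell, where 40.6% and 41.3% of all genes passed. DESeq2 called 2 and 13 of them and 27.1% and 28.9% of all genes, and it gave 12 of the 30 no adjusted p. Ccnb1, Ndc80 and Mki67 were the 3 genes whose log2 CPM was most like that of Hmmr over the 20 libraries of run 3, each with a Pearson r of 0.99, and r was 0.96, 0.97 and 0.98 over the 10 libraries of run 2. These libraries share the PDGF-BB group and the batches, and the share of dividing cells was not tested.

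In run 2 Hmmr was at 1.43 and 2.91 CPM in the antisense controls and at 9.23 and 14.3 in the libraries labelled total knockdown. Both labelled libraries were higher, by a log2 fold change of 2.44 (SE 1.07), with an adjusted p of 0.382 without the block and 3.64e-05 with it. It also passed in edgeR without the filter on low counts (3.34e-14), without batch P19 (0.014) and with only the compared groups (0.012). With DESeq2 the change missed the threshold (adjusted p = 0.265). The plasmid controls had 5.49, 7.65 and 35.7 CPM and the overexpression libraries 8.99, 15.1 and 47.8, higher in each batch. That change was 0.56 (SE 0.786), with an adjusted p of 0.786 without the block and 0.00542 with it. The plasmid controls differed from the antisense controls by 2.91 (SE 1.03, adjusted p = 0.429), or with the block by 1.73 (adjusted p = 0.000371). That difference also passed in edgeR without the filter on low counts (1.65e-22) and missed the threshold with DESeq2 (0.13). The mitosis sum was also highest in the P19 libraries of the plasmid groups, with 123 and 166 CPM in the antisense controls, 315 and 503 in the labelled libraries, 229, 285 and 1242 in the plasmid controls and 419, 561 and 1743 with overexpression. Of the 30 genes 0 passed in edgeR's or DESeq2's test for the labelled total knockdown or overexpression. At an unadjusted p under 0.05 edgeR counted 4 and 0 of the 30, and 1975 and 2295 of all 15350 genes. In the blocked fit all 30 passed as higher in both, where 14.4% and 17.7% of all genes passed. Between the plasmid and antisense controls 0 of the 30 passed with edgeR, DESeq2 called 4 and the blocked fit gave 20 higher. With edgeR, DESeq2 and the block 1.18%, 2.26% and 2.99% of all genes passed. Unadjusted, 21 of the 30 had a p under 0.05 in edgeR there, as did 1444 of all 15350 genes.

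**Figure D4:**
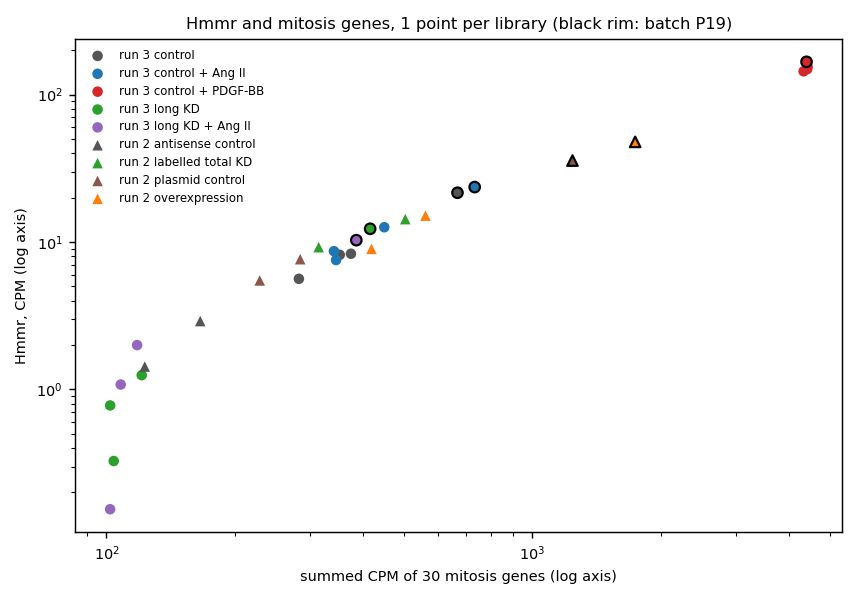
Hmmr (y axis, CPM, log axis) against the summed CPM of the 30 mitosis genes (x axis, log axis), 1 point per library, circles for run 3 and triangles for run 2, coloured by group (KD, knockdown; Ang II, angiotensin II), with a black rim for batch P19. The points run from 0.154 CPM in the long knockdown to 167 CPM with PDGF-BB, and P19 libraries lie highest within their group.

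Hyal1 (ENSMUSG00000010051.16), the lysosomal hyaluronidase, fell with PDGF-BB. It was at 10.9, 12.8, 9.13 and 9.38 CPM in the untreated controls and at 6.73, 4.47, 6.11 and 3.56 CPM with PDGF-BB, without overlap. The log2 fold change was -1.02 (SE 0.223, edgeR adjusted p = 0.000996), and all 15 alternatives kept the call. Hyal1 shares 50.8% of its exon bases with Naa80 on the same strand, which held 11019 counts over all libraries against 6119 for Hyal1, and 4.2% with Hyal3. RSEM divides such reads between genes, so the level of Hyal1 is uncertain. Naa80 also fell with PDGF-BB, by 0.58 on the log2 scale (adjusted p = 0.0111).

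Overexpression gave 5.09, 6.4 and 5.92 CPM of Hyal1 against 13.6, 17.3 and 7.54 in the plasmid controls. Every overexpression library was lower, by a log2 fold change of -1.15 (SE 0.274). The adjusted p was 0.0803 without the block, 0.0103 with it, 0.00454 with DESeq2 and 0.00479 without the P19 control. Leaving out any of the other 5 libraries gave 0.153 to 0.249, with a change of -0.88 without the P18 control, and 5 of 13 alternatives passed. Naa80 changed by -0.14 there (adjusted p = 0.735). In the long knockdown Hyal1 changed by -0.07 (SE 0.215, adjusted p = 0.845) in untreated cells and by -0.23 (SE 0.216, adjusted p = 0.476) under angiotensin II, and in the libraries labelled total knockdown by -0.11 (SE 0.323, adjusted p = 0.95).

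Hyal2 (ENSMUSG00000010047.13), the membrane-anchored hyaluronidase that makes the first, larger fragments, had a lower mean than the controls in the long knockdown, in the libraries labelled total knockdown, with overexpression and with PDGF-BB, and it passed the test in the long knockdown. In the untreated long knockdown it was at 27.7, 32.3, 28.5 and 27.8 CPM against 37.2, 32.6, 38 and 33.4. The groups did not overlap, although the P17 knockdown library at 32.3 CPM lay next to the P17 control at 32.6. The log2 fold change was -0.28 (SE 0.083, edgeR adjusted p = 0.0169), a fall to 82.4% of the control mean, and all 15 alternatives kept the call. Under angiotensin II it was at 30.2, 32.5, 30.6 and 27.9 CPM against 41.5, 36.7, 35.4 and 31, with overlap but lower in each batch. That change was -0.25 (SE 0.0833, adjusted p = 0.0292), lost in 5 of 15 alternatives, at 0.11 without the P16 control, 0.0621 and 0.0635 without the P16 or P19 knockdown library, 0.0907 without the filter on low counts and 0.0704 with only the compared groups.

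In the libraries labelled total knockdown Hyal2 was at 35.1 and 28.8 CPM against 52 and 47.1. The groups were apart, with a log2 fold change of -0.64 (SE 0.159), an adjusted p of 0.0839 without the block and 0.00169 with it, and 0.0155 with DESeq2. With overexpression it was at 39.8, 30.9 and 34.8 CPM against 46.2, 42.3 and 38.8, lower in each batch but with overlap. That change was -0.27 (SE 0.13, adjusted p = 0.371, or blocked 0.0419). PDGF-BB gave 32.5, 30.5, 30.4 and 31.6 CPM, below all 4 controls, and a change of -0.18 (SE 0.0829, adjusted p = 0.0938, or blocked 0.046).

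**Figure D5:**
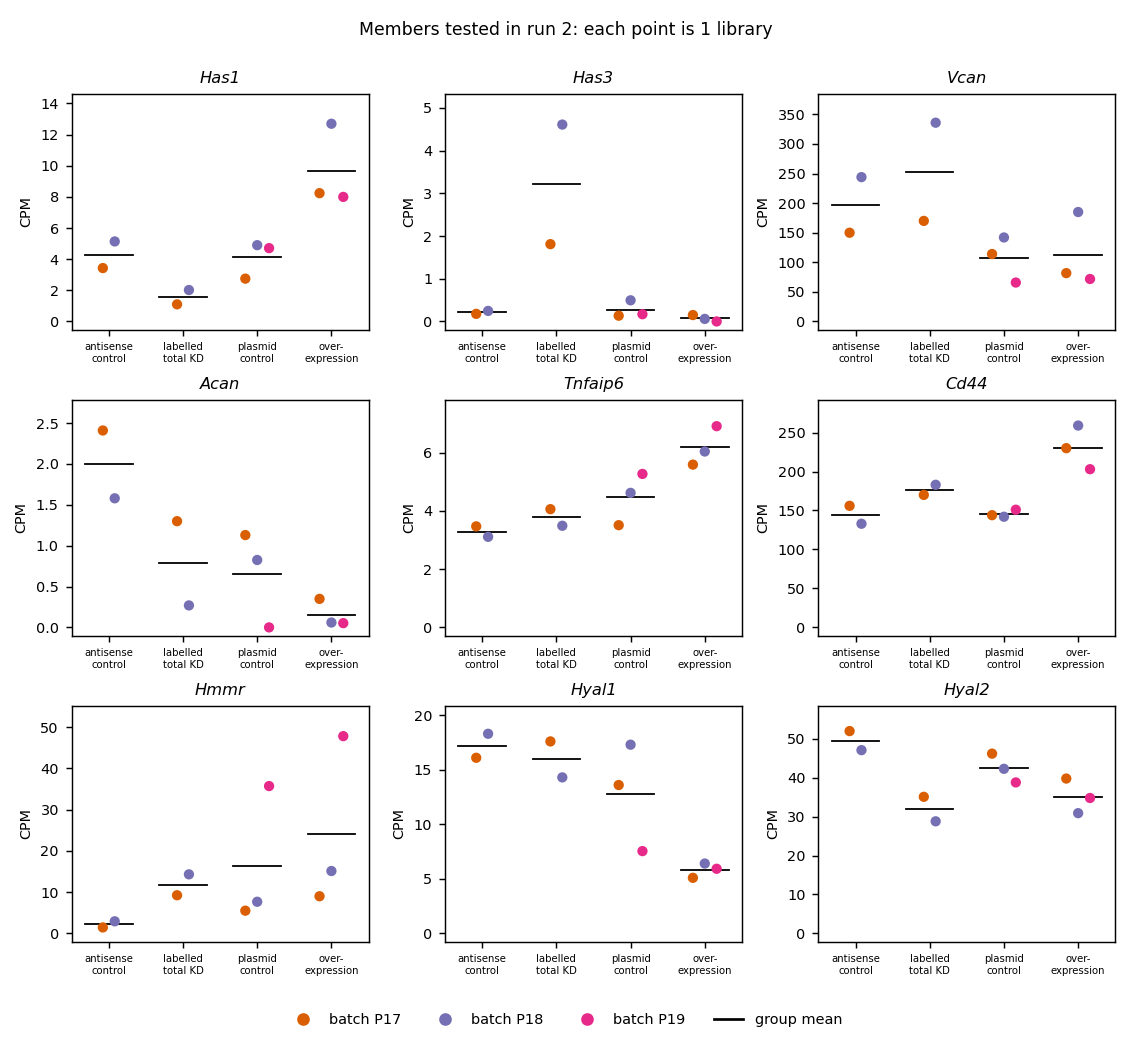
CPM (y axis, linear) of the 9 members tested in run 2 in its 4 groups (x axis; KD, knockdown), 1 point per library coloured by batch, with the group mean as a line. Has3 lies at 1.81 and 4.61 CPM in the libraries labelled total knockdown and at most at 0.495 CPM elsewhere, and Cd44 with overexpression at 203 to 259 CPM lies above the other groups.

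Angiotensin II, a vasoconstrictor peptide, gave 0 calls among the 8 members in edgeR's test and in DESeq2's. In control cells their log2 fold changes lay between 0.03 and 0.38 and the lowest unadjusted p was 0.175, that of Has3. In the long knockdown they lay between -0.23 and 0.13, with a lowest unadjusted p of 0.326, and the difference of the responses between knockdown and control had a lowest unadjusted p of 0.24. Over all genes, 0% passed in each of these 3 comparisons with edgeR. Unadjusted, 156, 174 and 166 genes had a p under 0.05, and DESeq2 called 1, 0 and 1. A p that misses the threshold does not show that a member did not respond, and the standard error of the change in control cells was 0.787 for Hmmr and 0.0828 for Hyal2.

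Other genes of the pathway were followed in lists, described by counts, beside medians of -0.02, 0.02 and 0.01 over all genes in the PDGF-BB, untreated knockdown and angiotensin II knockdown comparisons. The nucleotide sugars from which hyaluronan and chondroitin sulfate are made come from 10 listed enzymes and transporters. With PDGF-BB 9 of the 10 rose (median log2 fold change 0.63), where 23.6% of all genes did, among them Uxs1, which makes UDP-xylose (0.98, 32.1 to 63.6 CPM), and Gfpt2, the entry enzyme of the hexosamine pathway (0.82, 27 to 47.6 CPM). After the long knockdown 3 of the 10 fell in untreated cells and 5 under angiotensin II, where 12.8% and 13.3% of all genes fell. Gfpt2 fell by 0.94 in both, to 14.1 and 14.2 CPM from 27 and 27.3. With overexpression Gfpt2 rose from 10.6 ± 2.44 to 48 ± 7.83 CPM (SD, n = 3 each), a log2 fold change of 2.18 (SE 0.185, edgeR adjusted p = 0.000715), and it was the only one of the 10 to pass there, where 1.65% of all genes did. Uap1 (-0.44) fell in the untreated long knockdown and Gnpnat1 (-0.57) under angiotensin II, and both act further along the same pathway.

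Of the enzymes that build and sulfate the chondroitin sulfate chains of versican, 17 of 21 were tested in run 3. With PDGF-BB 6 rose and 2 fell, and 8 of 17 is near the 43.6% of all genes called: B4galt7, of the linker region, rose by 0.56 and Chsy1, of the chain itself, by 0.53, while the sulfotransferase gene Chst11 fell by 0.61 and the xylosyltransferase gene Xylt2 by 0.35. After the long knockdown 1 rose and 2 fell in each condition, 3 of 17 beside 25% and 26.7% of all genes. Chpf, a chain polymerising factor, fell by 0.53 in untreated cells and by 0.46 under angiotensin II. Chst7 fell by 0.89 in untreated cells and B4galt7 by 0.29 under angiotensin II.

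Of the other genes for hyaluronan breakdown and clearance, 7 of 11 were tested in run 3. With PDGF-BB 2 rose and 3 fell, 5 of 7 beside 43.6% of all genes, and the lysosomal enzyme gene Hexa (223 to 138 CPM, log2 fold change -0.69) fell with Hyal1, while Gusb rose by 0.32. Cemip, which encodes a hyaluronan depolymerising protein, fell in the untreated long knockdown from 280 ± 59.6 to 130 ± 81.1 CPM (SD, n = 4 each; -1.11, edgeR adjusted p = 0.0315), and Cemip2 fell by 0.44. Of these 7 genes, 3 passed there, beside 25% of all genes. Under angiotensin II 0 of the 7 passed with edgeR, where 26.7% of all genes did, and 1 with DESeq2, where 28.9% did. Unadjusted, 3 of the 7 had a p under 0.05 in edgeR there, as did 5785 of all 15103 genes. The clearance receptor gene Stab1 rose in the libraries labelled total knockdown from 0.423 ± 0.0308 to 13.7 ± 5.8 CPM (SD, n = 2 each; 5.00, adjusted p = 0.00328). Stab1 is known from macrophages and sinusoidal endothelium. Beside it, 7 leukocyte markers summed to 8.69 and 10.4 CPM in the antisense controls and 27.7 and 32.5 in the labelled libraries, with Ptprc and Adgre1 at or under 3 counts, and 7 endothelial markers to 2.81 and 3.9 against 6.02 and 10.1, with Cdh5, Tie1 and Emcn at or under 3 counts. Their part in the result was not tested.

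Of the proteins that assemble the matrix, 8 of 14 were tested in run 3, and 2 rose and 3 fell with PDGF-BB, 5 of 8 beside 43.6% of all genes. Fbln2, a versican-binding fibulin, rose from 789 to 1237 CPM (0.65) and the heavy chain gene Itih2 from 144 to 197 CPM (0.45), while Tnc fell from 28.2 to 8.23 CPM (-1.78) and Itih4 by 2.13. Both Fbln2 and Itih2 fell in the long knockdown, by 0.58 and 0.42 in untreated cells and by 0.51 and 0.42 under angiotensin II. These were the only 2 of the 8 called in either, a share near the 25% and 26.7% of all genes. Of the link proteins and other lecticans, only Hapln4 was tested in run 3, and it fell by 0.76 and 0.58 in the long knockdown. Of the versican and aggrecan proteases, 8 of 12 were tested: with PDGF-BB Mmp3 rose from 23 to 186 CPM (3.01) and Adamts1 by 0.27, and Mmp2 and Mmp14 fell by 0.27 and 0.25, so that 4 of 8 passed, near the 43.6% of all genes. After the long knockdown 4 of the 8 fell in untreated cells and 3 under angiotensin II, where 12.8% and 13.3% of all genes fell, among them Mmp3 (-0.98 and -0.97) and Adamts5 (-0.47 and -0.49).

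Of the 13 tested partners of CD44, 7 rose and 2 fell with PDGF-BB, 9 of 13 beside 43.6% of all genes. Spp1, which encodes the CD44 ligand osteopontin, rose from 3.18 to 57.8 CPM (4.16) and the linker gene Ank3 by 1.72, while the hyaluronan fragment receptor gene Tlr2 fell by 0.68. In the long knockdown Rdx rose (0.30 and 0.28), and the sheddase gene Adam17 (-0.43 and -0.44) and the merlin gene Nf2 (-0.38 and -0.42) fell, in untreated and angiotensin II cells. These are 3 of the 4 and 3 of the 3 called there, and 4 and 3 of 13 are near the 25% and 26.7% of all genes. With overexpression Tlr2 rose from 22.7 to 93.5 CPM (2.05) and Adam17 from 74.3 to 134 CPM (0.85), beside the rise of Cd44, and no other partner passed, where 1.65% of all genes did. The PDGF-BB and untreated knockdown comparisons share their control libraries.

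With the batch as a block, more genes of these lists passed, as did more of all genes (40.6% and 41.3% in the long knockdown, 17.7% with overexpression and 14.4% in the labelled total knockdown). In the untreated long knockdown 5 of 10 nucleotide sugar genes fell, 3 chondroitin sulfate genes rose and 4 fell, 4 breakdown genes fell, 1 assembly gene rose and 2 fell, 1 protease gene rose and 4 fell, and 1 CD44 partner rose and 7 fell. Under angiotensin II the knockdown gave 7 lower nucleotide sugar genes, 2 higher and 3 lower chondroitin sulfate genes, 3 lower breakdown genes, 2 higher and 3 lower assembly genes, 1 higher and 4 lower proteases and 1 higher and 5 lower CD44 partners. With overexpression 4 nucleotide sugar genes rose, 2 protease genes rose and 3 fell, 4 CD44 partners rose and 1 fell, 1 gene moved each way among chondroitin sulfate and among breakdown genes, and 1 assembly gene fell. In the libraries labelled total knockdown 3 breakdown genes, 4 CD44 partners and 1 gene of the lecticans and link proteins were higher, and 1 chondroitin sulfate gene, 3 assembly genes and 2 protease genes were lower.

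The genes whose level was most like each member over the 20 libraries of run 3 are given as a description, since those libraries share the PDGF-BB group and the batches. Tfrc, Plk4 and Topbp1 had an r of 0.99 with Cd44, and 0.80, 0.43 and 0.43 over the 10 libraries of run 2. Sprr2a2, Cobll1 and Zwilch had an r of 0.96 with Vcan, and -0.60, -0.29 and -0.39 in run 2. For Has1 they were Lrrc8b, Drg1 and Itpr3 (0.95 each, and -0.84, -0.73 and 0.05 in run 2). For Has3 they were Slc45a3 (0.93), Zfp113 and Sec31b (0.92 each), and in run 2 -0.52, 0.56 and 0.84. Tnfaip6 was most like Frmd5 (0.92), Il33 (0.89) and Nod1 (0.86), with 0.16, -0.14 and 0.85 in run 2. Hyal1 was most like Zfp397, Usf1 and Zfp354a (0.91 each, and 0.67, -0.05 and 0.69 in run 2) and Hyal2 like Shroom1, Parp12 and H6pd (0.86 each, and 0.39, -0.18 and -0.02 in run 2). Of the 8 members, Hmmr was the only one whose 3 genes all had an r over 0.95 in run 2 as well.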

How the data were processed

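The authors deposited expected counts, 1 value per gene and library, from RSEM. The submitters' processing notes list STAR 2.7.11b, RSEM 1.3.1 and the builds GRCm39 and mm10 without a role. The annotation, strand setting and any test are not given in the sources used here. Identifiers were matched to symbols through a reference list of gene names, which names 51486 of 78334 (98.7% of counts). Transcript lengths and exon overlaps are from GENCODE M21, which need not be the annotation behind the counts.

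Expected counts were rounded, filtered with filterByExpr (minimum count 10, minimum total 15) and fitted with edgeR 4.0.16 (R 4.3.3, TMM scaling, robust quasi-likelihood), all groups of a run together and each run separately. Tests were two-sided, with Benjamini-Hochberg adjustment over the 15350 or 15103 genes of a run, and the threshold for a call was an adjusted p of 0.05. Every adjusted p is from this test unless DESeq2 1.42.0 is named. The script was tested on simulated data. CPM use TMM library sizes, and the standard error of a change is its size over the square root of F. Promoter windows are from RefSeq (GRCm38.p6) and were matched for 8 of the 10 members. Has2 and Has3 had none.

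Within a run, each replicate number goes with 1 batch of the labels, so same-numbered libraries of a run share a batch. Their deviations from group means correlated at 0.168 to 0.499 on average over the comparisons. The values for other pairs, -0.253 to -0.056, follow from these, because deviations from a mean cancel within a group. They are no separate evidence for the block. The block uses this batch. The members, lists and comparisons were chosen with earlier results of these data known. Named genes are the members, up to 2 called genes in each direction per pathway list and comparison with a mean of at least 1 CPM, the 3 genes most correlated with each member (mean of at least 5 CPM, log2 CPM with a prior count of 2), marker genes and overlapping genes. Alternatives were DESeq2, RLE scaling, no filter, only the compared groups, a filter at a mean CPM of 1, the block, leaving out batch P19 and leaving out each library. Libraries held 15771489 to 30362053 counts. A floor of 3 counts covers counting error only.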

Additional observations from a re-analysis of the deposited data

Results flagged for a closer look

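In 45 group and member combinations with 4 libraries, 7 had a library far from the other 3. Chance flags about 1 in 20 groups, but these combinations share the same libraries, so the flags do not count as separate events. Batch P19 gave 6 of the 7. Hmmr was highest in the P19 library of the untreated controls, at 21.6 CPM beside 5.63 to 8.33, and of the untreated long knockdown, at 12.3 CPM beside 0.327 to 1.25. In that knockdown group the P19 library also had the highest Vcan, 123 CPM beside 72.6 to 80.7, and the lowest Has3, 1.86 CPM beside 3.23 to 3.48. Tnfaip6 was lowest in the P19 library of the angiotensin II controls, at 2.22 CPM beside 3.97 to 4.11. Cd44 was highest in the P19 library with PDGF-BB, at 272 CPM beside 209 to 217. The seventh was Hyal2 in the P17 library of the untreated long knockdown, at 32.3 CPM beside 27.7 to 28.5.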

How the results depend on the processing

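Of 1093 member changes recomputed under alternatives, 958 kept their direction and side of the threshold, 46 newly passed, 24 lost the call and 65 turned sign. The calls of Vcan, Cd44, Has1 and Hyal1 with PDGF-BB and of Hyal2 in the untreated long knockdown held in all 15 alternatives each. The replicate block raised the members called from 1 to 3 in the long knockdown under angiotensin II, from 0 to 4 in the labelled total knockdown, from 1 to 5 with overexpression and from 0 to 1 for the plasmid control, and in the other comparisons it added 1 member or changed no call. Without batch P19 the counts were 4 and 3 in the long knockdown (untreated and under angiotensin II), 3 in the labelled total knockdown and 2 with overexpression. Without the filter on low counts they were 0 in the long knockdown under angiotensin II, 4 in the labelled total knockdown, 4 with overexpression and 2 for the plasmid control. With only the compared groups they were 0, 3 and 0 in the first 3 of these, and with DESeq2 3 in the labelled total knockdown and 3 with overexpression. The causes were not tested. Leaving out 1 library gave 6 to 8 members with PDGF-BB, where 5601 to 6624 of all genes passed. In the untreated long knockdown it gave 1 to 4 members and 2889 to 4882 of all genes. Under angiotensin II the knockdown gave 0 to 1 members and 3042 to 4880 of all genes. With overexpression it was 0 to 2 members, and 0 in the angiotensin II comparisons.

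Signs that turned otherwise were those of Vcan in the long knockdown without batch P19 (-0.08 and -0.10), of Has3 (-0.05), Vcan (0.01), Hmmr (0.50) and Hyal1 (0.01) for angiotensin II in the long knockdown without P19, of Has1 (-0.01 with the block, -0.03 without P19) and Hmmr (0.15 without P19) for the difference of the responses, and of Cd44 for the plasmid control without P19 (-0.02). Leaving out 1 library turned the sign of 25 changes, none of which passed the threshold, with these ranges on the log2 scale. For angiotensin II in control cells, Cd44 -0.01 to 0.18, Hmmr -0.24 to 0.82, Hyal2 -0.04 to 0.09 and Vcan -0.04 to 0.13. For angiotensin II in the long knockdown, Cd44 -0.08 to 0.01, Has1 -0.26 to 0.60, Has3 -0.14 to 0.12, Hmmr -1.74 to 2.15, Hyal1 -0.21 to 0.09 and Vcan -0.19 to 0.18. For the difference of these responses, Has1 -0.36 to 0.50, Hmmr -1.96 to 1.93, Hyal1 -0.29 to 0.01, Hyal2 -0.03 to 0.10 and Vcan -0.23 to 0.14. For the long knockdown in untreated cells, Hyal1 -0.22 to 0.03 and Vcan -0.07 to 0.21. For the long knockdown under angiotensin II, Vcan -0.11 to 0.16. For the labelled total knockdown, Hyal1 -0.27 to 0.04 and Vcan -0.21 to 0.77. For overexpression, Hmmr -0.44 to 1.87 and Vcan -0.48 to 0.32. For the plasmid control, Cd44 -0.10 to 0.13, Has1 -0.32 to 0.25 and Has3 -0.47 to 0.64.

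Over all genes, the block called 6126 and 6238 genes in the long knockdown against 3783 and 4033, and 6062 were called in untreated cells without P19. Under angiotensin II the knockdown gave 6049 without P19, 3199 without the filter and 3397 with only the compared groups. In the labelled total knockdown 317 were called, and 719 with DESeq2, 1325 without the filter, 190 with a mean CPM of at least 1, 1079 with only the compared groups, 2209 with the block, 1041 without P19 and 4 to 188 without 1 library. With overexpression 253 were called, and 807, 1363, 270, 66, 2721 and 844 under the same settings in that order, and 86 to 867 without 1 library. For the plasmid control 181 were called, and 347 with DESeq2, 1106 without the filter, 101 with only the compared groups, 459 with the block and 67 to 277 without 1 library. Few counts limit Has2, Acan and, in run 2, Has3. Under settings whose filter removed Has3 or Acan they have no value, and DESeq2 gave Hmmr no adjusted p in run 3. Where 1 library was left, it was assumed to vary like the other groups.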

Other observations

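The untreated antisense control was sequenced in both runs, and several members sat at other levels in each. Vcan was at 197 CPM on average in run 2 and 81.2 in run 3, Acan at 1.99 and 0.232, Hmmr at 2.17 and 10.9 and Has3 at 0.213 and 2.02. Hyal2 (49.6 and 35.3 CPM) and Cd44 (145 and 91.2) were also higher in run 2, while Tnfaip6 was at 3.29 and 3.21. Run 2 holds 2 such libraries and run 3 holds 4. The runs were scaled separately, no test was made, and run and culture cannot be told apart.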
